A study of Mus musculus with 11 samples.

Results

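The levels of 10 miRNAs best known from neurons and glia were followed in mouse feces through dextran sulfate sodium (DSS) colitis. They are miR-9-5p, miR-9-3p, miR-9b-3p, miR-124-3p, miR-128-3p, miR-129-5p, miR-129b-3p, miR-138-5p, miR-218-5p and miR-219a-5p, picked by name, and all 10 were found among the 616 rows of the count table. DSS, given in drinking water, damages the epithelium of the colon and causes colitis. Feces of C57BL/6 mice gave 11 small RNA libraries: 4 from before any DSS, 3 from day 5 of drinking 2.5% DSS, and 4 from day 12, reached after those 5 days and 7 further days on water without DSS. The protocol text gives the whole DSS-free period as 13 days, so day 12 would fall within it, and the labels do not say how the 2 figures relate. The labels give no genotype, sex or age, list no mice left without DSS, and do not say whether libraries of a group came from separate mice (their protocol text also speaks of fewer libraries than 11), so p-values measure only the spread between these samples. Because no untreated library was taken on day 5 or day 12, phase and sampling day cannot be told apart. Libraries carry the number of their deposited column, and those of day 12 are called recovery libraries.

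A miRNA is cut from a hairpin, whose left arm gives the 5p and whose right arm gives the 3p form, and it represses mRNAs that pair with its seed, bases 2 to 8. miR-9 and miR-124 act during neuron formation, miR-124 by repressing genes that neurons do not use. miR-128 and miR-129 are brain miRNAs linked to neuronal excitability, miR-138 to the size of dendritic spines (in rat neurons), miR-218 is rich in motor neurons, and miR-219a drives oligodendrocyte maturation. The gut wall has neurons and glia of its own.

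The mature sequences, from RefSeq (GRCm38.p6), were matched for 9 of the 10 members and are shown because they separate what is 1 RNA family from what only shares a name. The seed is in capitals and each sequence runs 5′ to 3′.
miR-9-5p: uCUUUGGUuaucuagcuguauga
miR-9-3p: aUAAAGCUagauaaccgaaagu
miR-9b-3p: aUACAGCUagauaaccaaaga
miR-128-3p: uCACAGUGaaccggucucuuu
miR-218-5p: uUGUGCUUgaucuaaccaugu
miR-129-5p: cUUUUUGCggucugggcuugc
miR-129b-3p: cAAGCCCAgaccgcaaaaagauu
miR-138-5p: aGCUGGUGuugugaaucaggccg
miR-219a-5p: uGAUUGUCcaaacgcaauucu
The 9 sequences held 9 different seeds, and no other table row with a matched sequence carried any of them. They were 21 to 23 bases long, and levels were computed without a length term. Whether unlike sequences were recovered equally in the libraries was not tested, so an order of members is an order of counts.

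The rows of miR-9b-3p and miR-129b-3p are not separate measurements. miR-9b-3p is annotated on the strand opposite to miR-9-5p, at the same 21 bases of chromosome 3 (88215613 to 88215633 in GRCm38, miR-9-5p on the plus strand). The shared bases are in capitals below, with miR-9b-3p turned to its reverse complement.
miR-9-5p: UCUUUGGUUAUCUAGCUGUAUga
miR-9b-3p, reverse complement: UCUUUGGUUAUCUAGCUGUAU
The row of miR-9-5p held 4955 counts over the 11 libraries and that of miR-9b-3p held 4946, equal in 6 libraries and at most 3 counts apart in the others. miR-129b-3p stands in the same relation to miR-129-5p on chromosome 2 (94241420 to 94241439, miR-129-5p on the minus strand), with 20 shared bases.
miR-129-5p: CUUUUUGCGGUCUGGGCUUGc
miR-129b-3p, reverse complement: aauCUUUUUGCGGUCUGGGCUUG
Its 219 counts stood beside 220 of miR-129-5p, and the rows were equal in 10 of 11 libraries. In the whole table, 15 pairs of rows overlap on opposite strands. Of the 10 pairs with at least 50 counts in a row, 7 had totals within 2% of each other and 3 did not, so opposite strands were not always counted alike. The counts cannot tell which strand such reads came from. miR-9b-3p and miR-129b-3p were therefore left out of sums, and 8 distinct members remained.

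The distinct members come from many loci. The 3 hairpins that give miR-9-5p and miR-9-3p lie on chromosome 3 (88215598 to 88215686, in an intron of the long noncoding RNA gene Gm3764), on chromosome 13 (83738814 to 83738885, in an exon of C130071C03Rik) and on chromosome 7 (79505264 to 79505353, in an intron of Mir9-3hg). Those of miR-128-3p lie in introns of R3hdm1 on chromosome 1 (128202361 to 128202430) and Arpp21 on chromosome 9 (112118636 to 112118711). Those of miR-218-5p lie in introns of Slit2 on chromosome 5 (48223942 to 48224051) and Slit3 on chromosome 11 (35616816 to 35616925), genes of axon guidance cues. Those of miR-129-5p lie on chromosome 6 (29022619 to 29022691, in an exon of Gm3294) and chromosome 2 (94241364 to 94241453, in an intron of Mir670hg). Those of miR-138-5p lie on chromosomes 9 and 8, and those of miR-219a-5p on chromosomes 17 and 2. Positions are from RefSeq and host genes from GENCODE on the same build. A mature sequence that several hairpins share does not show which of them was expressed.

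Library totals ran from 11749 to 40835 miRNA counts, so 3 counts, taken here as the floor of detection, stand for 73.5 to 255.3 CPM (the count divided by the library total in the table, scaled to 1000000). Recovery library 4 stood apart in the members themselves, so results that rest on it are given with and without it. The totals are what passed the authors' filters and not sequencing depth, and floors and intervals cover counting error only.

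The 8 distinct members together made up 3.13% ± 1.80 of the counts before DSS (SD, n = 4), 3.96% ± 1.05 on day 5 (SD, n = 3) and 2.47% ± 2.02 on day 12 (SD, n = 4). Single libraries held 2.54%, 5.66%, 2.92% and 1.42% before DSS, 2.74%, 4.59% and 4.54% on day 5, and 1.30%, 4.18%, 4.18% and 0.233% on day 12. The phases overlapped, and the lowest library of all was recovery library 4. In bulk feces, fewer cells of a type and less RNA per cell cannot be told apart.

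miR-9-5p was the fifth most abundant row of 616, at 23662 ± 12892 CPM (SD, n = 11). Before DSS it stood at 19495, 43202, 22449 and 10621 CPM in libraries 1 to 4. On day 5 it stood at 20759, 36053 and 34216 CPM in libraries 1, 3 and 4, and in recovery libraries 1 to 4 at 10138, 31384, 31109 and 860.4 CPM. Recovery library 4 lay more than 10-fold below every other library, and the phases overlapped. With composition factors (edgeR's TMM, which correct for a few rows taking up much of a library) the before-DSS libraries still ran from 14724 to 35475 CPM, a 2.41-fold range against 4.07-fold by library total.

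miR-128-3p stood at 3057, 6722, 2915 and 1435 CPM before DSS. On day 5 it stood at 2909.6, 4978 and 4766 CPM, and on day 12 at 1469, 4612, 4547 and 932 CPM. Its libraries fell in nearly the same order as those of miR-9-5p, with before-DSS library 2 the highest and recovery library 4 the lowest. miR-218-5p stood at 1479, 2417, 2235 and 897 CPM before DSS. It stood at 1902, 2409 and 2724 CPM on day 5, and at 563, 2651 and 2991 CPM in recovery libraries 1 to 3. Recovery library 4 had 0 counts of miR-218-5p in 27893, which allows up to 107.6 CPM, while each of the other 10 libraries had 23 to 75 counts.

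miR-129-5p stood at 592, 2266, 826 and 646 CPM before DSS, at 951, 1124 and 1872 CPM on day 5, and at 391.8, 1378, 1356 and 287 CPM on day 12. miR-124-3p stood at 427, 1133, 486 and 466 CPM before DSS, at 671, 883 and 1277 CPM on day 5, and at 294, 1219, 798 and 251 CPM on day 12. For both, before-DSS library 2 lay well above its group and recovery library 4 was the lowest of the 11, though miR-124-3p there rests on 7 counts. miR-9-3p, the other arm of the miR-9 hairpins, had 9, 11, 5 and 2 counts before DSS, 4, 3 and 4 on day 5, and 4, 11, 22 and 0 on day 12. Over all libraries it had 75 counts against the 4955 of miR-9-5p, so the 5p arm held most of the counts. The minor arms of miR-129 gave 14 counts (miR-129-2-3p) and 6 counts (miR-129-1-3p).

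**Figure D1:**
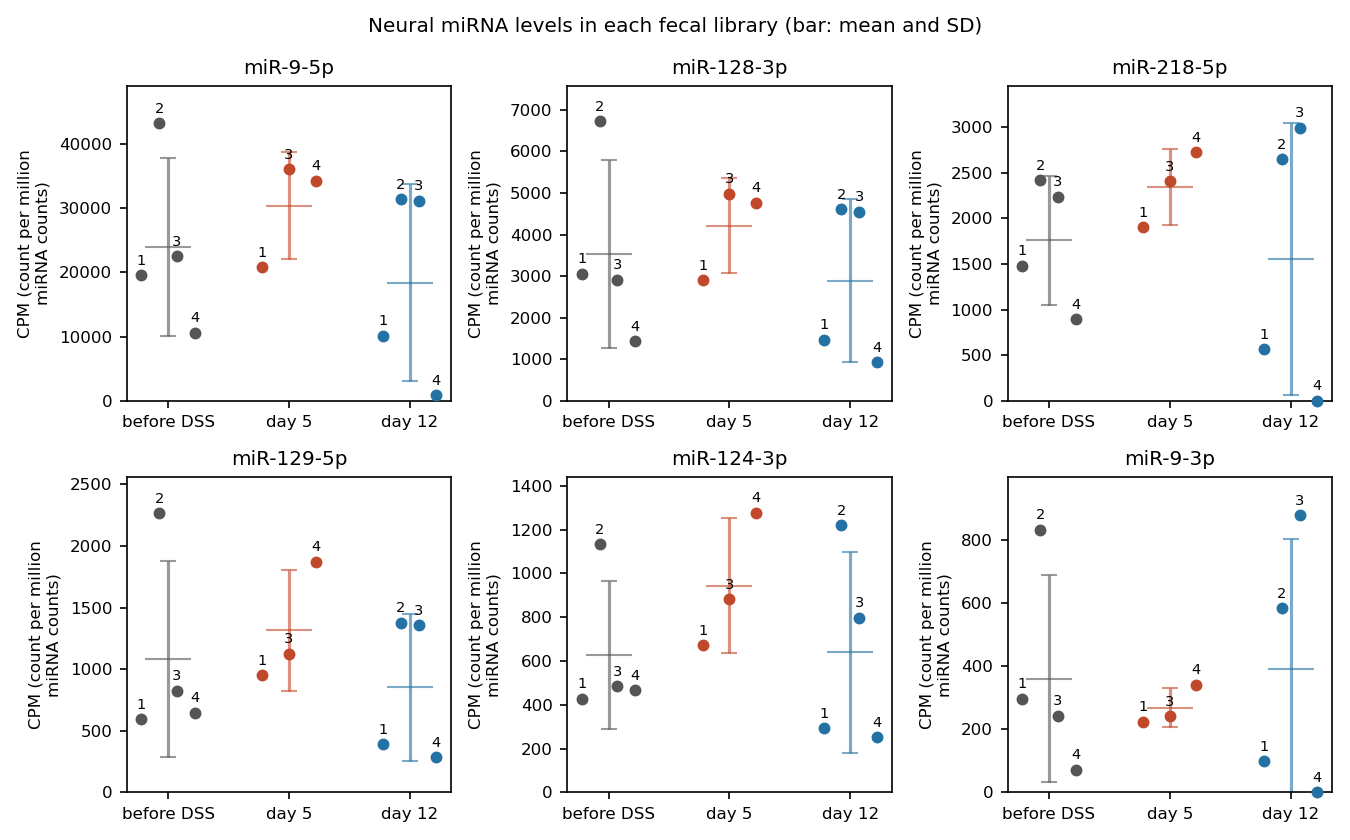
Level of the 6 distinct members with enough counts for a test, in CPM by library total (vertical axis, linear, starting at 0), in each library before DSS, on day 5 and on day 12 (horizontal axis). Points are libraries with their number in the deposited column, and bars are the mean and SD of a phase (n = 4, 3 and 4); the phases overlap in every panel, and recovery library 4 is the lowest point in each.

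The last 2 members were at the floor. miR-138-5p had 9 counts in all, of which 2 fell before DSS, 5 on day 5 (0, 3 and 2 in libraries 1, 3 and 4) and 2 on day 12. miR-219a-5p had 4 counts, 2 in before-DSS library 1 and 2 in recovery library 3, and 0 counts in 42075 on day 5, which allows up to 71.3 CPM over that group. Its partner on the opposite strand, miR-219b-3p, had 2 counts. At this depth no difference between phases was detectable for either. The arm of miR-219a-2 with the most counts in feces was the 3p arm, miR-219a-2-3p, with 43 counts in 10 of 11 libraries.

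In order of mean level, the members ran miR-9-5p, miR-128-3p, miR-218-5p, miR-129-5p, miR-124-3p, miR-9-3p, miR-138-5p and miR-219a-5p. The order held within libraries more firmly than the SDs across libraries would show. miR-128-3p was above miR-218-5p, and miR-129-5p above miR-124-3p, in 11 of 11 libraries. miR-9-5p was above miR-128-3p, and miR-218-5p above miR-129-5p, in 10 of 11, the exception being recovery library 4 both times. Some of these margins were a few counts, within counting error. miR-129-5p had 8 counts against 7 of miR-124-3p in recovery library 4, and 14 against 11 in day 5 library 3. In before-DSS library 2, miR-218-5p had 32 against 30 of miR-129-5p. miR-124-3p was above miR-9-3p in 10 of 11, with 20 against 22 counts in recovery library 3. miR-138-5p and miR-219a-5p did not differ beyond their counting error.

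Outside recovery library 4, miR-128-3p kept close to a fixed proportion of miR-9-5p although both varied several-fold between libraries. miR-128-3p had 15.7, 15.6, 13.0 and 13.5 counts per 100 counts of miR-9-5p in before-DSS libraries 1 to 4. It had 14.02, 13.8 and 13.9 on day 5, and 14.5, 14.7 and 14.6 in recovery libraries 1 to 3. Recovery library 4 had 108.3 per 100, from 26 counts of miR-128-3p and 24 of miR-9-5p (exact 95% binomial interval 59.8 to 197). Without that library the ratio had a coefficient of variation of 5.97% over 10 libraries, while the CPM of miR-9-5p spanned 10138 to 43202. Single ratios were less certain than that, with an exact 95% binomial interval of 9.46 to 18.8 per 100 in before-DSS library 4. The 5.97% therefore does not measure how fixed the ratio was. The chi-square of the ratio per degree of freedom was 0.22, below the value of about 1 that independent counting around 1 fixed ratio gives. It was the lowest value among the 123 rows with at least 100 counts that could be set against miR-9-5p, whose median was 14.04. For the same relative spread this value grows with the counts of a row. Ranks over rows of unlike abundance are therefore a description and not a like comparison. With all 11 libraries it was 6.99, and 18 of 124 rows were lower.

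Ratios of the other members had wider ranges, on fewer counts. Over the same 10 libraries, miR-218-5p had 5.56 to 9.96 counts per 100 of miR-9-5p, miR-129-5p had 3.04 to 6.08 and miR-124-3p had 2.16 to 4.39. Their chi-square per degree of freedom was 1.45, 0.96 and 0.85, which took ranks 17, 9 and 5 from the lowest among the 123 rows. For miR-129-5p and miR-124-3p this is about what counting around 1 fixed ratio gives. miR-9-3p had 0.668 to 2.82 per 100, a 4.22-fold range with 1.73 per degree of freedom, on 2 to 22 counts per library. With so few counts it was not settled whether the arms of miR-9 kept a fixed proportion. Values under 1.5 were not particular to the members, since 18 of the 123 rows had them. These 18 do include miR-128-3p, miR-218-5p, miR-129-5p and miR-124-3p themselves. The near-duplicate row of miR-129b-3p is also among the 123 rows ranked. For comparison, miR-192-5p, an abundant miRNA of gut epithelium, had 66.8 to 1224 counts per 100 of miR-9-5p over these libraries. Its value was 368 per degree of freedom, on 300 to 3622 counts per library. In recovery library 4, miR-129-5p had 33.3 per 100 (interval 12.9 to 76.7) and miR-124-3p 29.2 (interval 10.6 to 69.8), and miR-218-5p had 0, with an upper bound of 16.6. There the proportions were therefore different, with miR-9-5p lower against miR-128-3p, miR-129-5p and miR-124-3p. The choice of this library, and of the ratio as a measure, was made after the values were seen, and no test was run on it.

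**Figure D2:**
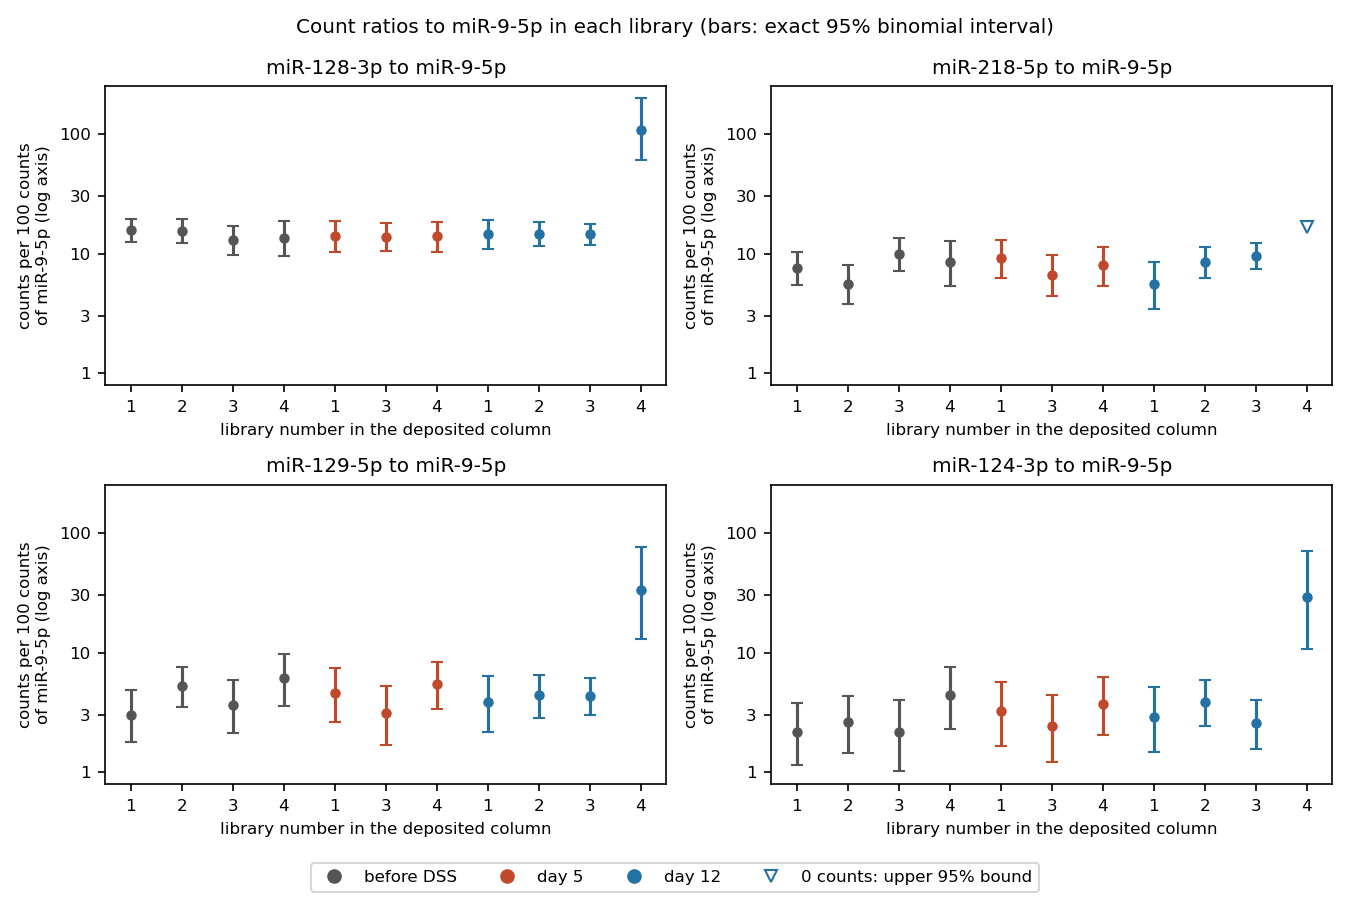
Counts of miR-128-3p, miR-218-5p, miR-129-5p and miR-124-3p per 100 counts of miR-9-5p (vertical axes, log scale) in each of the 11 libraries (horizontal axes, library number), with exact 95% binomial intervals; the open triangle is the upper bound for 0 counts. In 10 libraries miR-128-3p lies between 13.0 and 15.7 per 100, and in recovery library 4 it lies at 108.3.

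Recovery library 4 was low in these miRNAs but not in most miRNAs taken as markers of other cells. Relative to the mean CPM of the other recovery libraries, miR-9-5p stood at 0.036, miR-128-3p at 0.26, miR-129-5p at 0.28 and miR-124-3p at 0.33, with miR-9-3p and miR-218-5p at 0 counts. The median of the 137 rows with enough counts for a test was 0.64. Of the 6 members 3 lay under 0.1 (miR-9-5p and miR-9-3p, from the same hairpins, and miR-218-5p), against 14.6% of the rows. The library was singled out by the members' own values, so their low standing in it followed from that choice. Of 12 marker rows, 8 were higher in recovery library 4 than the mean of the other recovery libraries and 4 were lower, where 39 of the 137 tested rows were above it. The lower quartile of those rows was 0.28, so miR-128-3p, miR-129-5p and miR-124-3p lay near it and miR-9-5p far below it. The 4 gut epithelial rows stood at 1.11 (miR-215-5p) to 2.46 times that mean (miR-200b-3p), the red blood cell rows miR-451a and miR-486a-5p at 2.50 and 2.72, and miR-223-3p of neutrophils at 1.76. miR-142a-3p of leukocytes stood at 0.84, and the enteroendocrine rows miR-375-3p and miR-7a-5p at 1.03 and 0.45. Of the smooth muscle and stroma rows, miR-143-3p stood at 0.25 and miR-145a-5p had 0 counts, as it had at most 3 in any library. The summed level of these last rows was 1577 CPM in recovery library 4 and 3037 to 8959 CPM in recovery libraries 1 to 3, against 4880 to 10725 CPM before DSS and 7218 to 11723 CPM on day 5. The part of these shifts in the levels of the members was not tested.

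The counts of miR-9-5p did not follow the size of the library. The library with the largest total, recovery library 1 with 40835 counts, held 414 counts of miR-9-5p, and the one with the smallest, day 5 library 4 with 11749, held 402. Outside recovery library 4 the counts ran from 296 to 780, a 2.64-fold range, and the totals ranged 3.48-fold.

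**Figure D3:**
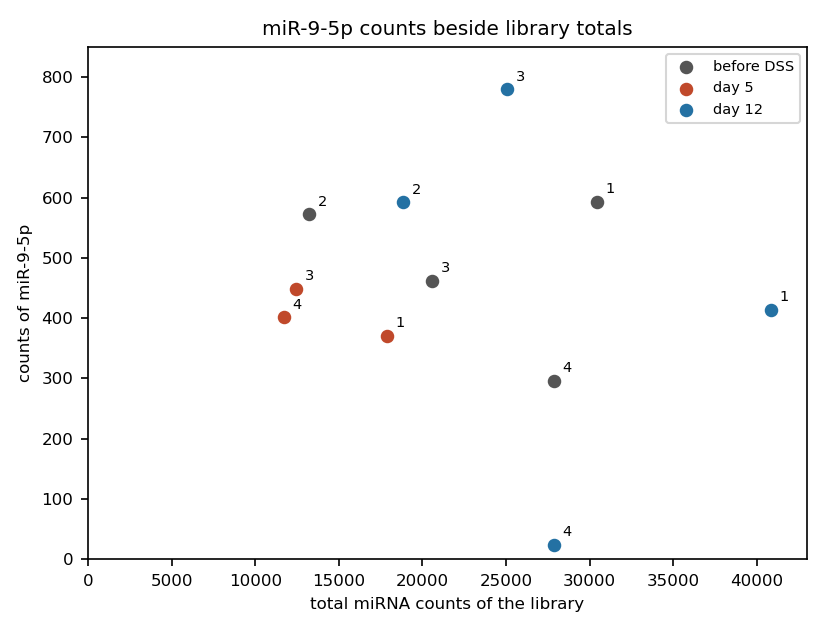
Counts of miR-9-5p (vertical axis) against the total miRNA counts of the library (horizontal axis), 1 point per library, coloured by phase and numbered as in the deposited columns. Recovery library 4 lies at 24 of 27893, and the other 10 libraries lie between 296 and 780 counts over totals of 11749 to 40835.

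Comparing day 5 with before DSS asked whether neural miRNAs differed in feces during acute colitis. No member passed the threshold (adjusted p under 0.05) in edgeR's quasi-likelihood test, where 0% of the 137 tested rows did, and no member had an unadjusted p under 0.05, where 24.8% of rows did. Of the members, 8 rows, 6 of them distinct, had enough counts to be tested, and miR-138-5p and miR-219a-5p did not. miR-9-5p averaged 30342 ± 8350 CPM on day 5 (SD, n = 3) and 23942 ± 13789 CPM before DSS (SD, n = 4), with a log2 fold change after composition factors of 0.05 ± 0.69 (SE). The log2 fold change was 0.28 ± 0.48 for miR-124-3p, 0.09 ± 0.79 for miR-218-5p, 0.03 ± 0.50 for miR-129-5p, -0.03 ± 0.44 for miR-128-3p and -0.60 ± 0.95 for miR-9-3p (SE). Their median was 0.04, and that of all 137 rows 0.03. The smallest adjusted p was 0.798 by edgeR, for miR-9-3p, and the range over the alternatives was 0.515 to 1. No member had day 5 and before-DSS libraries that did not overlap, where 21.2% of rows did by library total and 18.2% with TMM factors.

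Comparing day 12 with before DSS asked whether they differed after recovery. Again no member passed by edgeR, where 6.57% of rows did (9 rows, and 15 with a replicate block on the number of the column), and none had an unadjusted p under 0.05, where 16.8% did. miR-9-5p averaged 18373 ± 15341 CPM on day 12 and 23942 ± 13789 CPM before DSS (SD, n = 4 each), a log2 fold change of -0.51 ± 0.64 (SE, edgeR adjusted p = 0.738). For miR-218-5p the log2 fold change was -0.39 ± 0.73, for miR-129-5p -0.39 ± 0.46, for miR-128-3p -0.36 ± 0.41, for miR-124-3p -0.07 ± 0.44 and for miR-9-3p 0.03 ± 0.78 (SE). Their median of -0.37 stood beside -0.02 for all rows. Without recovery library 4 the median was -0.06, beside -0.07 for all rows, and miR-9-5p had a log2 fold change of -0.13 ± 0.35 (SE). In that fit the values of miR-124-3p and miR-218-5p were 0.12 and 0.0078. Other settings gave larger differences: miR-9-5p and miR-218-5p were at -1.19 and -1.46 by limma-voom and at -0.79 and -0.71 with the replicate block, and miR-9-5p was at -0.82 without recovery library 2. Without before-DSS library 2, those of miR-124-3p, miR-128-3p and miR-129-5p were 0.24, 0.0024 and 0.08. The range of adjusted p over the alternatives was 0.414 to 1. The libraries of day 12 and before DSS overlapped for all 8 tested member rows, where 13.9% of rows had groups apart by library total and 11.7% with TMM factors.

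Between day 12 and day 5 no member passed by edgeR either, where 3.65% of rows did (5 rows, and 14 with the replicate block), or had an unadjusted p under 0.05, where 19.0% did. miR-9-5p averaged 18373 ± 15341 CPM on day 12 (SD, n = 4) and 30342 ± 8350 CPM on day 5 (SD, n = 3), a log2 fold change of -0.56 ± 0.68 (SE). It was -1.26 with the replicate block (edgeR adjusted p = 0.184, the lowest of any member under any alternative, the highest being 0.979) and -0.17 without recovery library 4. miR-9-3p had 0.63 ± 0.93, and 1.004 ± 0.72 without recovery library 4 (SE, edgeR adjusted p = 0.485). The other 4 lay between -0.49 (miR-218-5p) and -0.33 (miR-128-3p), and with the replicate block between -1.11 (miR-218-5p) and -0.65 (miR-124-3p). By limma-voom miR-9-5p was at -1.29 and miR-218-5p at -1.59. Day 12 and day 5 overlapped for all 8 rows, where 13.1% of rows had groups apart by library total and 16.1% with TMM factors. Tested for a difference between any of the 3 phases, none of the members passed, where 8.03% of rows did. These comparisons share libraries and are not independent. DESeq2 and limma-voom also called 0 of the members in each comparison, as did every other alternative run. With standard errors of 0.41 to 0.95 on the log2 scale, even changes well over 1 standard error could have been missed. The tests therefore do not show that the levels were alike.

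**Figure D4:**
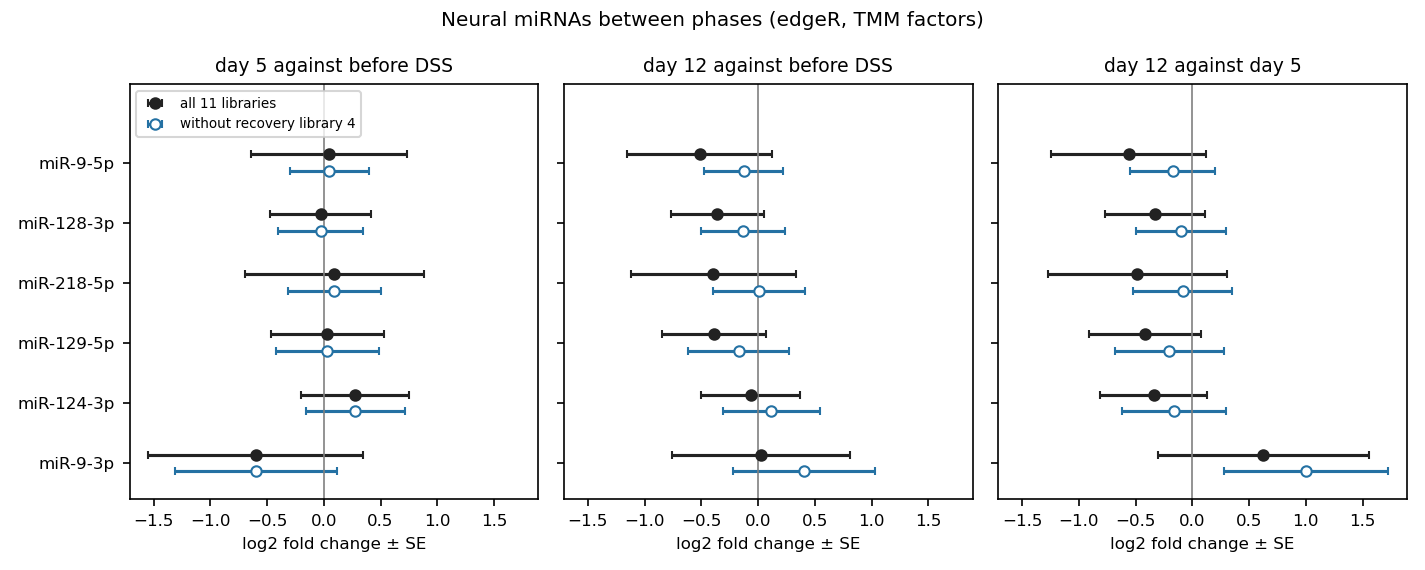
Log2 fold change (horizontal axis, ± SE) of the 6 distinct tested members in day 5 against before DSS, day 12 against before DSS and day 12 against day 5, by edgeR with TMM factors. Filled points are from all 11 libraries and open points without recovery library 4; miR-9-5p on day 12 against before DSS is at -0.51 with that library and at -0.13 without it.

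Further miRNAs on a chosen list of neural and glial miRNAs and minor arms were mostly sparse. This does not describe neural miRNAs outside the list. Of its 38 names, 26 had a row and 0 had enough counts to be tested. Of the 26 rows, 17 had at most 3 counts in every library. miR-132-5p and miR-132-3p, which are induced by neuronal activity, had 36 and 19 counts in all, miR-135a-5p 24, and miR-137-3p and miR-153-3p 5 and 6. miR-96-5p, better known from sensory cells, had 62. miR-184-3p had 570, of which 519 came from a single library.

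The tested rows outside the members whose levels followed miR-9-5p most closely were miR-222-3p, miR-381-3p, miR-125b-5p, miR-125a-5p and miR-30d-5p. Likeness is Spearman's rho over the 11 libraries on log2 CPM with TMM factors and a prior count of 2. It was 0.92, 0.91, 0.86, 0.85 and 0.84, with miR-434-5p equal to the last. Pearson's r was 0.96, 0.87, 0.84, 0.74 and 0.40 in that order, so miR-30d-5p followed in rank more than in size. Without recovery library 4, a choice made after seeing the data, rho was 0.89, 0.88, 0.82, 0.81 and 0.82, but miR-423-5p was then the highest at 0.93 (0.45 with all libraries) and miR-204-5p reached 0.84. By library total only, miR-125b-5p and miR-127-3p led at 0.97, and miR-30d-5p was at 0.86. Among the members, rho with miR-9-5p was 0.89 for miR-128-3p, 0.85 for miR-124-3p, 0.75 for miR-129-5p, 0.70 for miR-9-3p and 0.65 for miR-218-5p. In that order it was lower without recovery library 4, at 0.85, 0.79, 0.66, 0.60 and 0.53. The rows that ran most against miR-9-5p were miR-22-3p (rho -0.91), miR-378a-3p (-0.89) and miR-429-3p (-0.85, an epithelial miRNA). By library total only these were at -0.54, -0.80 and -0.77, with miR-22-3p behind miR-192-5p (-0.75). Without recovery library 4 they were at -0.88, -0.94 and -0.79, and miR-103-3p was at -0.89. The libraries share their totals and composition factors across all these rows, so the values are a description and carry no test.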

How the data were processed

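Per the labels' protocols, fecal RNA was extracted with a mirVana kit, made into TruSeq small RNA libraries and sequenced on an Illumina HiSeq, and the authors used ACGT101-miR to take out adapter dimers, junk, repeats and common structural RNAs. For the aligner, build and miRNA reference, nothing is given in the sources used here. The authors deposited raw read counts for 616 rows in 11 libraries, and TPM columns, which for the recovery libraries equal the count over the library total. The 7 TPM columns of the other libraries were not used. CPM was recomputed from the counts. Day 12 columns match sample titles. Day 5 and before-DSS columns were assigned to their group only. Within groups, no library repeated another (lowest chi-square per degree of freedom 3.63). Pairs across groups were not compared.

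Tests on the counts used edgeR 4.0.16 (quasi-likelihood fit, TMM factors, default filter on low counts, 137 rows) in R 4.3.3, all 11 libraries in a fit on group, with Benjamini-Hochberg adjustment over all rows and a threshold of 0.05. Alternatives included DESeq2 1.42.0 and limma-voom (limma 3.58.1). Exact binomial intervals are from scipy 1.17.1. Labels do not pair the libraries. Deviations of same-numbered columns had r of 0.15 to 0.51 (day 12 and before DSS, 4 pairs) and 0.10 to 0.35 (day 12 and day 5, 3 pairs). For day 5 and before DSS r was -0.10 to 0.13 (3 pairs). Differently numbered columns had r of -0.60 to 0.46, -0.47 to 0.46 and -0.20 to 0.24 in the same order of comparisons. All same-numbered r with day 12 were positive, but the ranges overlapped those of differently numbered columns. Whether the number is a pairing was thus not settled. The main fits used none, and the replicate block was run only as an alternative.

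The members, the lists and the alternatives were chosen with earlier results of these data known. All members are named, with the 5 rows most like and the 3 least like miR-9-5p.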

Additional observations from a re-analysis of the deposited data

Results flagged for a closer look

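In groups of 4 libraries, a library was looked at again where its gap to the nearest other exceeded 0.829 of the group's range. The groups share libraries, and the ratios share a divisor, so the number found cannot be set against a chance rate. Among 28 such groups 5 were found. Of these, 3 concern recovery library 4, whose counts per 100 of miR-9-5p were 108.3 for miR-128-3p (14.5 to 14.7 in the other recovery libraries), 29.2 for miR-124-3p (2.56 to 3.89) and 33.3 for miR-129-5p (3.86 to 4.39). These share the 24 counts of miR-9-5p as their divisor. The other 2 concern before-DSS library 2, with 1133 CPM of miR-124-3p (427 to 486 in the other before-DSS libraries) and 2266 CPM of miR-129-5p (592 to 826). These are CPM by library total. With TMM factors they were 930 CPM (507 to 647) and 1861 CPM (767 to 895), and only the gap of miR-129-5p still exceeded the bound.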

How the results depend on the processing

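No member was called under any alternative. Removing the 5 most abundant rows takes out miR-9-5p itself, so it has no value there. Rows called over the whole table numbered 0 (day 5 against before DSS), 9 (day 12 against before DSS), 5 (day 12 against day 5) and 11 (any difference). In this order of comparisons they were 15, 17, 21 and 29 without a filter on low counts and 16, 15, 14 and 22 with the replicate block. On day 5 against before DSS there were 11 by library total only, 5 with a minimum of 10 CPM in 3 libraries and 5 by DESeq2. On day 12 against day 5 there were 2, 10 and 12 under those settings, 2 from the compared groups only and 2 without the near-duplicate rows. For any difference there were 17 with the CPM minimum and 23 by DESeq2. Leaving out 1 library gave 0 to 2, 5 to 14, 1 to 7 and 7 to 11.

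Log2 fold changes near 0 changed sign. For miR-128-3p on day 5 against before DSS the value was 0.060 with TMMwsp, 0.29 by library total, 0.029 without a filter, 0.031 with the CPM minimum, 0.051 by limma-voom and 0.27 with the replicate block, and for miR-129-5p it was -0.022 without the 5 most abundant rows. On day 12 against before DSS, miR-124-3p had 0.0039 with TMMwsp, 0.057 by library total and 0.028 from the compared groups only. miR-9-3p had -0.57 by limma-voom, -0.14 with the replicate block and -0.023 without near-duplicate rows there, and -0.29 and -0.020 on day 12 against day 5 by limma-voom and the block. Leaving out 1 library gave, on day 5 against before DSS, -0.13 to 0.33 for miR-9-5p, -0.23 to 0.30 for miR-128-3p, -0.26 to 0.47 for miR-129-5p and -0.060 to 0.22 for miR-218-5p. On day 12 against before DSS it gave -0.42 to 0.24 for miR-124-3p, -0.57 to 0.0024 for miR-128-3p, -0.60 to 0.082 for miR-129-5p, -0.85 to 0.0078 for miR-218-5p and -0.68 to 0.60 for miR-9-3p, which on day 12 against day 5 had -0.083 to 1.004. The cause was not tested. The members' mean share was 5.63% before DSS and 7.12% on day 5 with near-duplicate rows counted, and 6.19%, 6.66% and 4.57% before DSS, on day 5 and on day 12 against totals without the 5 most abundant rows. Depth limits miR-9-3p, miR-138-5p and miR-219a-5p most.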
